A study of Mus musculus with 32 samples.

Results

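The livers described here came from 8 mice kept under chronic jet lag until 30 weeks of age, 8 of the 32 mice of the series. They were chosen by their titles, which give the schedule, the age and the time of day. Times are zeitgeber times (ZT, hours after lights on, with lights off at ZT12): 2 mice were taken at ZT2 in the early light phase, 3 at ZT10 in the late light phase, and 3 at ZT18 in the middle of the dark phase. From the age of 4 weeks these mice were moved repeatedly between a pair of rooms whose lights came on 8 h apart. The labels do not say how a ZT relates to the last move. The 8 mice set against them were of the same age, under a steady cycle of 12 h light and 12 h dark, again 2 at ZT2, 3 at ZT10 and 3 at ZT18. A further 8 jet-lagged mice of 12 weeks were used for a comparison of ages. All were male wild-type C57BL/6 mice, housed singly, with 1 liver per array and each replicate a separate mouse. The design asks which liver transcripts still differ with the time of day after months of shifting light, and how these differences compare with those under steady light.

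In the liver, as in most mammalian cells, the circadian clock is a transcriptional feedback loop. ARNTL (also called BMAL1) and CLOCK bind E-box elements and activate the Per and Cry genes, whose proteins then repress them. The nuclear receptors REV-ERB alpha and beta (Nr1d1, Nr1d2) repress Arntl. The PAR-bZIP factors DBP, TEF and HLF and their competitor NFIL3 carry the rhythm to D-box genes, many of them metabolic. The liver clock is set by systemic cues, among them feeding, glucocorticoids and body temperature, as well as by light through the brain.

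Values are levels: the log2 of the array's background-subtracted signal minus that array's 75th percentile, so that a difference of 1 is 2-fold. Changes, ranges and their errors come from the fitted group means, which allow for arrays that share a slide and so can differ a little from the plain means of the values printed. The 11 hepatocyte markers tested fitted the label of liver, with a mean level between 9.39 and 9.77 on the 8 arrays. In the test over the 3 times described below, 0 of the 11 were called. Both ZT2 mice still lay below the other 6 in 6 of the 11, beside 13.6% of all genes. The median range of the 11 was 0.36 in jet-lagged and 0.10 in steady mice, beside 0.27 and 0.31 over all genes. Between 47.0% and 57.4% of probes were well above background. The 75th percentile of the raw signal was 238 and 269 at ZT2, 192, 210 and 251 at ZT10, and 177, 158 and 184 at ZT18, so it was highest at ZT2 in mouse 2 and lowest in the ZT18 mice; what this contributed to the results was not tested. Each of the 8 arrays lay on a different slide, so no times could be compared within a slide.

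Genes of other tissues stood apart on some arrays. The mean level of 22 skeletal muscle markers was -3.65 and -3.98 in the ZT2 mice, 3.01, -3.20 and 0.37 in the ZT10 mice, and 2.89, 2.64 and -0.90 in the ZT18 mice. Their summed linear level was 9.12 to 9.86 at ZT2, 10.6 to 409 at ZT10 and 24.7 to 379 at ZT18. Thus both ZT2 mice, 1 ZT10 mouse and, less so, 1 ZT18 mouse were low, and the markers Myh4, Myh8 and Myl1 were not well above background in either ZT2 mouse. Of these 22 genes, 12 rose at ZT18 relative to ZT2, beside 3.61% of all genes. The 9 pancreatic acinar markers were high in 2 ZT10 mice (1.89 and 1.58, against -1.68 in the other) and 1 ZT18 mouse (3.37, against -2.09 and -2.17), and stood at -2.27 and -2.05 at ZT2, with 0 of 9 called. Of 5 erythroid genes, the alpha globin genes Hba-a1 and Hba-a2, near-identical copies that probes may not separate, were called over time. The summed erythroid level was 497 to 589 at ZT2, 750 to 1032 at ZT10 and 1120 to 1395 at ZT18. Among 5 adipocyte genes only Adrb3 was called, and it fell at ZT18. The summed adipocyte level was 2.84 to 5.07 at ZT2, 3.43 to 14.6 at ZT10 and 4.48 to 8.06 at ZT18. No marker of Kupffer cells (10 tested), lymphocytes (9), stellate cells (12), endothelium (10), cholangiocytes (7), neutrophils (5) or the MHC class II list (8) was called. In steady mice of 30 weeks the mean muscle marker level was -3.45, -1.49 and -3.39 at ZT10 and 1.43, 0.35 and 1.81 at ZT18. Of the 22 muscle markers, 16 rose there at ZT18 relative to ZT10, beside 3.99% of all genes. The part of muscle RNA in the steady calls was not tested. In bulk tissue, fewer cells of a type and less RNA per cell cannot be told apart. The counts of calls that lead each group below are also given without the 3 arrays of highest muscle level (ZT10 mouse 1, ZT18 mice 1 and 2), a choice made after the data were seen that leaves ZT18 with 1 mouse, assumed to vary like the other groups.

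**Figure D1:**
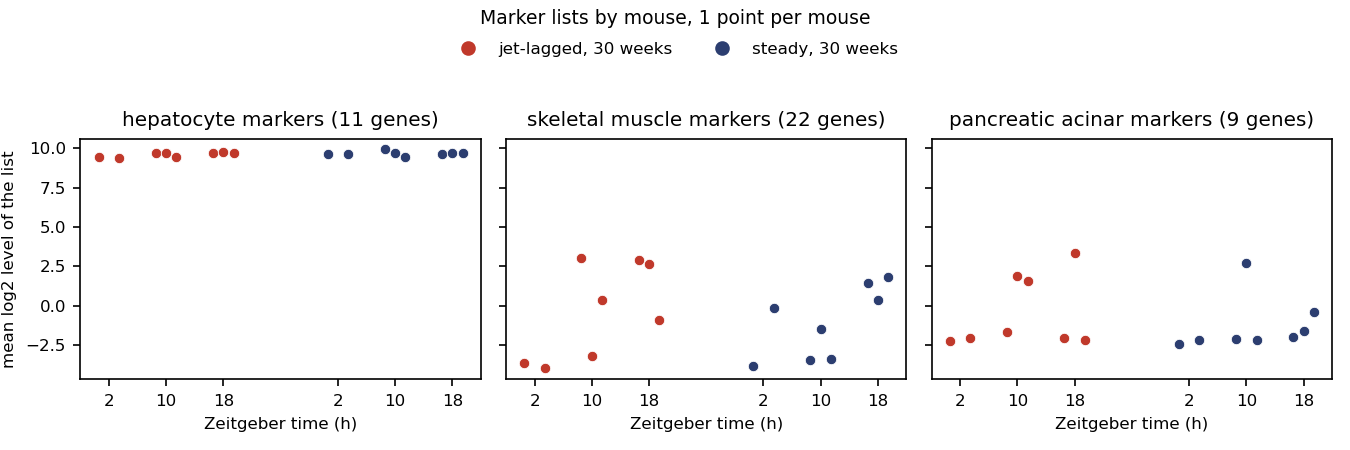
Mean level (log2 signal relative to the array's 75th percentile) of 11 hepatocyte, 22 skeletal muscle and 9 pancreatic acinar markers in each mouse of 30 weeks, by ZT, with jet-lagged mice left of steady mice and 1 point per mouse. Hepatocyte markers lie between 9.39 and 9.77 in all 8 jet-lagged mice, whereas muscle markers span -3.98 to 3.01.

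Time of day still separated the jet-lagged livers, mainly through ZT2. Of 23109 genes tested, 836 (3.62%) differed over the 3 times by limma's F test at a Benjamini-Hochberg adjusted p under 0.05. The same test called 2590 (11.2%) in steady mice of that age. Of the 836, 466 were highest at ZT18, 287 at ZT2 and 83 at ZT10. ZT2 had the highest or lowest mean in 818 of them (97.8%), and in 728 both ZT2 mice lay outside the range of the other 6 mice, 470 below it and 258 above it. Over all genes these shares were 13.6% below and 8.43% above. In 236 called genes every ZT10 mouse lay above both ZT2 mice and every ZT18 mouse above all ZT10 mice, an order found in 2.77% of all genes. The 836 genes were chosen by a test of these same mice, so their larger shares follow in part from that choice. The range of the 3 group means reached 1 in 319 called genes. These counts used a spread estimated over all 32 arrays; with the spread of the 8 arrays alone, 2 genes were called, and 0 genes of any list described below. Without ZT2 mouse 2 the count was 352, and without the 3 muscle-high arrays it was 440.

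ZT18 and ZT10, the comparison with 3 mice on each side, differed in 0 genes by limma's adjusted p, and 1615 genes (6.99%) had an unadjusted p under 0.05. All 3 ZT18 mice lay above all 3 ZT10 mice in 2126 genes (9.2%) and below them in 990 (4.28%). In steady mice 2354 genes (10.2%) were called between these times, at which their muscle markers also differed, as given above. The median absolute difference was 0.126 in jet-lagged and 0.186 in steady mice. The count was 57 without the 3 muscle-high arrays and 11 without ZT10 mouse 3. ZT10 against ZT2 called 369 genes (1.6%), 220 higher (0.952%) and 149 lower (0.645%). ZT18 against ZT2 called 1329 (5.75%), 834 higher (3.61%) and 495 lower (2.14%). The median change over all genes was 0.01, 0.02 and 0.03 for ZT18 minus ZT10, ZT10 minus ZT2 and ZT18 minus ZT2.

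The core clock genes were close to level between ZT10 and ZT18 in jet-lagged mice, while in steady mice most of them moved strongly between these times. Of 22 tested, 0 passed the test for ZT18 against ZT10 under jet lag and 0 had an unadjusted p under 0.05; the smallest was 0.07, for Per3. In steady mice 5 rose and 10 fell, beside 3.99% of all genes that rose and 6.19% that fell. The change itself differed between the schedules in 11 of the 22 (449 genes, 1.94%, over the whole array), and the pattern over the 3 times in 13 (455 genes, 1.97%). Without the 3 muscle-high arrays the first count was 6, and with slides fitted as fixed effects both counts dropped, to 2 and 4. Over the 3 times, 5 of the 22 were called under jet lag (all lower at ZT2, among them Per1, Per2, Bhlhe40 and Usp2), against 19 in steady mice, beside 3.62% and 11.2% of all genes. The median range of the 22 genes was 0.70 in jet-lagged and 2.52 in steady mice, beside 0.27 and 0.31 over all genes.

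The promoters of 4 clock genes whose pattern differed between schedules show the elements through which the loop is known to act. Each is 250 bases before to 50 bases after the RefSeq start (GRCm38.p6), on the minus strand for Ciart, Cry1 and Per3 and the plus strand for Arntl, with the motif in capitals. They were picked after their values were seen, because they hold a motif. The positions are chr3:95882179-95882478, chr10:85185005-85185304, chr4:151044616-151044915 and chr7:113207261-113207560 in the order printed.
Ciart: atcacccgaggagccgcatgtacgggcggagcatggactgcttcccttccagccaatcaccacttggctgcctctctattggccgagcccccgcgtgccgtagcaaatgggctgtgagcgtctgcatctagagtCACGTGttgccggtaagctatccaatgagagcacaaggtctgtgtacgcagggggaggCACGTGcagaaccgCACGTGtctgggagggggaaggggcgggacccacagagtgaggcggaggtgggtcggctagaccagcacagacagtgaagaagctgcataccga
Cry1: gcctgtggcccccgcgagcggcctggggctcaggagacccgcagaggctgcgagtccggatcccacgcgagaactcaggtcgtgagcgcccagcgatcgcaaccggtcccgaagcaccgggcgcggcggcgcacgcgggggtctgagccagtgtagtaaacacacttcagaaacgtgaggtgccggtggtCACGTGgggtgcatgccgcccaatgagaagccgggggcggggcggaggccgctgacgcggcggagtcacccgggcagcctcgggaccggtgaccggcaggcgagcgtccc
Per3: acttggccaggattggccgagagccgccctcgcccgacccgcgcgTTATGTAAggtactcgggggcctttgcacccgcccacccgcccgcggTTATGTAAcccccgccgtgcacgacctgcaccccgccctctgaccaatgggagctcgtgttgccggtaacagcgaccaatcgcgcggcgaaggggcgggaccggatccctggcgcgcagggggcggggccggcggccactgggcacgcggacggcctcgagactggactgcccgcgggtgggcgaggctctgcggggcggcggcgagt
Arntl: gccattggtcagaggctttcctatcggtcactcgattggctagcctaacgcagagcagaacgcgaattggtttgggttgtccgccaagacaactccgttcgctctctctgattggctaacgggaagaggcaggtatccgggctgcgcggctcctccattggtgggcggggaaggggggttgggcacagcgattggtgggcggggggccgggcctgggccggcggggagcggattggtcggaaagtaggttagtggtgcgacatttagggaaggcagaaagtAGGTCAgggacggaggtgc
Ciart holds 3 and Cry1 1 of the E-box CACGTG, Per3 holds 2 of the D-box TTATGTAA, and Arntl holds 1 nuclear receptor half-site AGGTCA. Both strands were searched and no match overlapped another motif searched. Of 32851 promoter windows, 7.15% hold the E-box, 0.938% the D-box and 16.3% the half-site. Of the 18 clock genes with a window, 5, 1 and 5 hold them in any of their 26 windows. These counts are by gene and the shares above by window, so they are not on the same scale. A match is a description of the letters, not evidence of binding.

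Of the activators, Arntl, partner of CLOCK, stood at -2.01 and 1.03 at ZT2, -1.64, -1.07 and -1.09 at ZT10 and -0.59, -0.54 and -0.91 at ZT18 in jet-lagged mice. In steady mice it stood at 2.03 and 2.10, at -4.89, -3.16 and -4.45 (well above background in 1 of the 3), and at 1.74, 1.61 and 1.54. The jet-lagged ZT18 mice all lay above the ZT10 mice, but by 0.69 ± 0.52 (SE), where steady mice rose by 5.59 ± 0.52; the difference between these changes was -4.90 ± 0.73 (adjusted p = 0.0015). For Clock the difference between changes was -1.46 ± 0.26 (adjusted p = 0.0045), and it was not called over time under jet lag (adjusted p = 0.12). Npas2, a paralogue of Clock, was not well above background on any jet-lagged array.

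Among the repressors, Per1, which glucocorticoids also induce, stood at 2.10 and 1.10 at ZT2, 3.56, 3.70 and 3.49 at ZT10 and 3.85, 3.18 and 3.23 at ZT18. Both ZT2 mice lay below the rest, and Per1 rose by 2.12 ± 0.41 at ZT10 (adjusted p = 0.0084) and by 1.83 ± 0.41 at ZT18 (adjusted p = 0.0092). In steady mice it stood at -0.30 and -0.56, at 4.12, 3.79 and 3.84, and at 2.30, 1.86 and 2.35. Per2 was likewise lowest in both ZT2 mice, at -1.07 and -2.43, against -0.61, 0.80 and -0.34 at ZT10 and -0.24, -0.14 and 0.06 at ZT18, and rose by 1.71 ± 0.34 at ZT10 (adjusted p = 0.011). Per3 stood at -1.26 and -3.02, at -1.20, -1.07 and -0.98, and at -1.40, -1.41 and -2.03, without a call (adjusted p = 0.20). All ZT18 mice lay below all ZT10 mice for Per3, as they did in steady mice, where it stood at -0.67, -1.09 and -0.97 at ZT10 and -2.96, -2.47 and -2.01 at ZT18. At steady ZT2 it was not well above background.

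Cry1, which represses the activators, stood at -3.37 and -2.24, at -2.33, -2.05 and -1.87, and at -2.08, -2.65 and -1.85 under jet lag, so that all 3 times overlapped. In steady mice it stood at -1.94 and -1.55 at ZT2, -4.55, -3.83 and -2.34 at ZT10 (well above background in 1 of the 3), and -0.23, -0.46 and -0.54 at ZT18. The ZT18 minus ZT10 change differed between schedules by -3.00 ± 0.50 (adjusted p = 0.0024). Ciart, also called CHRONO, a repressor of the activators, stood at -0.50 and -2.27, at 0.59, 0.09 and -0.12, and at 0.06, -0.38 and -0.47 under jet lag. Its steady ZT10 mice stood at 1.44, 1.39 and 0.91 and its steady ZT18 mice at -3.88, -4.13 and -2.82 (well above background in 2 of the 3), with no overlap; the difference between schedules was 4.15 ± 0.65 (adjusted p = 0.0016). Bhlhe40 (DEC1), another E-box repressor, was the lowest in both ZT2 mice, at 2.61 and 1.48, against 3.15, 3.34 and 2.89 at ZT10 and 3.15, 3.61 and 3.50 at ZT18, and rose by 1.30 ± 0.30 at ZT10 (adjusted p = 0.028).

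Of the nuclear receptors, Nr1d1 stood at 1.06 and 1.82, at 0.20, 0.10 and -0.65, and at -0.64, -0.61 and -0.43 under jet lag (adjusted p = 0.20 over time). Both ZT2 mice were the highest, and the ZT10 and ZT18 mice overlapped. In steady mice it stood at 1.16 and -0.04, at 1.88, 1.10 and 0.10, and at -3.26, -4.81 and -6.11, where 1 of 3 ZT18 arrays was well above background. The ZT18 minus ZT10 change differed by 5.19 ± 0.81 (adjusted p = 0.0015), and that of its paralogue Nr1d2 by 2.00 ± 0.34 (adjusted p = 0.0036).

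Among the output factors, Dbp stood at 6.09 and 4.35 at ZT2, 6.21, 5.74 and 5.71 at ZT10 and 5.60, 5.52 and 5.68 at ZT18, a range of 0.70 (adjusted p = 0.69). All jet-lagged mice lay between the low and the high levels of the steady cycle, where Dbp stood at 1.14 and 0.35, at 7.47, 7.09 and 6.76, and at 2.02, 2.46 and 2.72. The ZT18 minus ZT10 change differed between schedules by 4.12 ± 0.62 (adjusted p = 0.0015). Its competitor Nfil3 stood at 2.70 and 3.88, at 3.67, 3.51 and 3.26, and at 3.56, 3.29 and 3.26 under jet lag, against 4.71 and 5.12, 2.00, 2.10 and 1.79, and 4.25, 3.98 and 4.27 in steady mice. Here the fitted range under jet lag was 0.11 (adjusted p = 0.98), and the change differed by -2.24 ± 0.38 (adjusted p = 0.003). Usp2, a deubiquitinase under clock control, stood at 3.54 and 0.83, at 4.18, 4.04 and 3.91, and at 4.12, 4.11 and 4.20, and rose by 1.97 ± 0.43 at ZT18 against ZT2 (adjusted p = 0.0068). Cry2, the casein kinase genes Csnk1d and Csnk1e, and Rora had ranges of 0.13 to 0.21 and were not called.

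**Figure D2:**
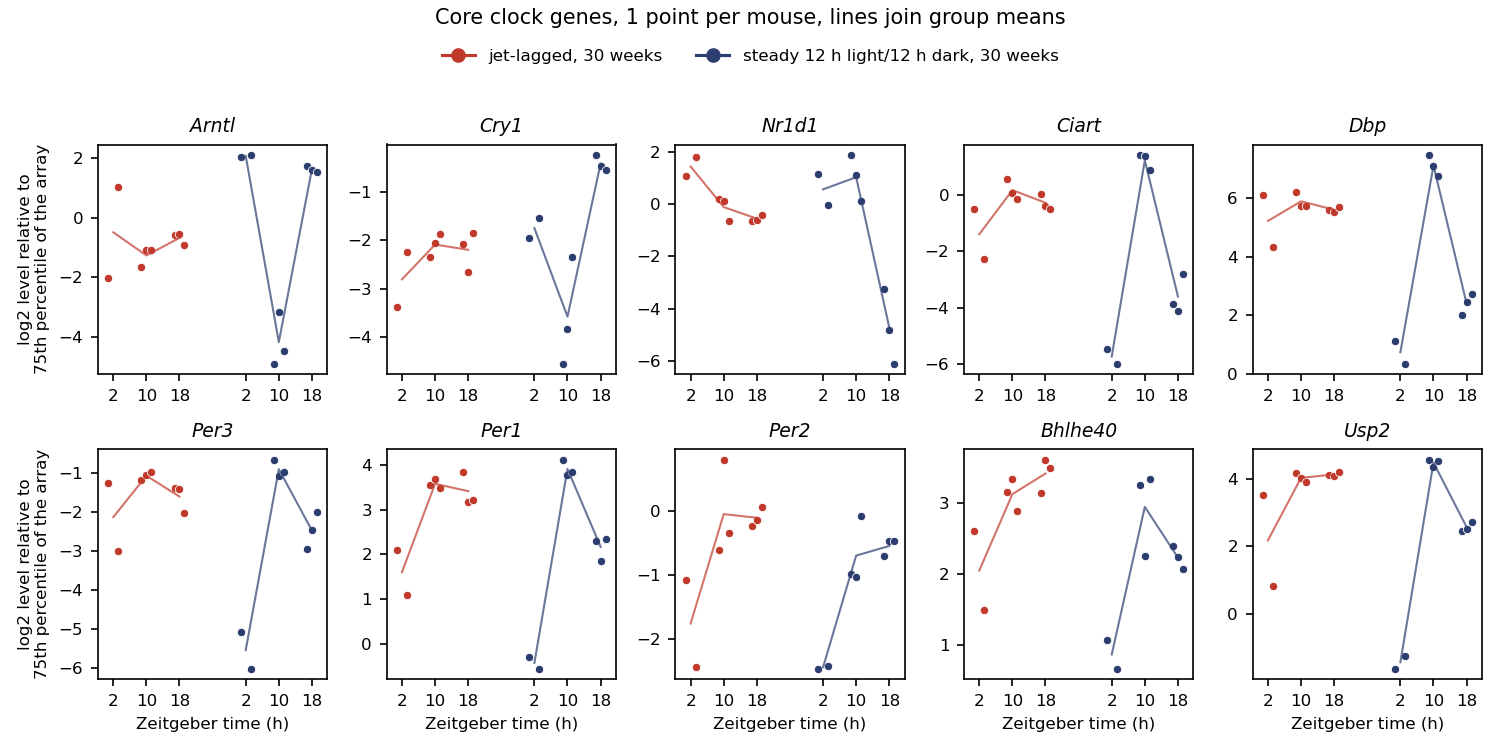
Level (log2 signal relative to the array's 75th percentile) of 10 clock genes by ZT, 1 point per mouse, with lines through the group means and jet-lagged mice left of steady mice. Jet-lagged ZT10 and ZT18 mice lie close together, as for Dbp between 5.52 and 6.21, whereas steady Dbp lies at 6.76 to 7.47 at ZT10 and 2.02 to 2.72 at ZT18.

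**Figure D3:**
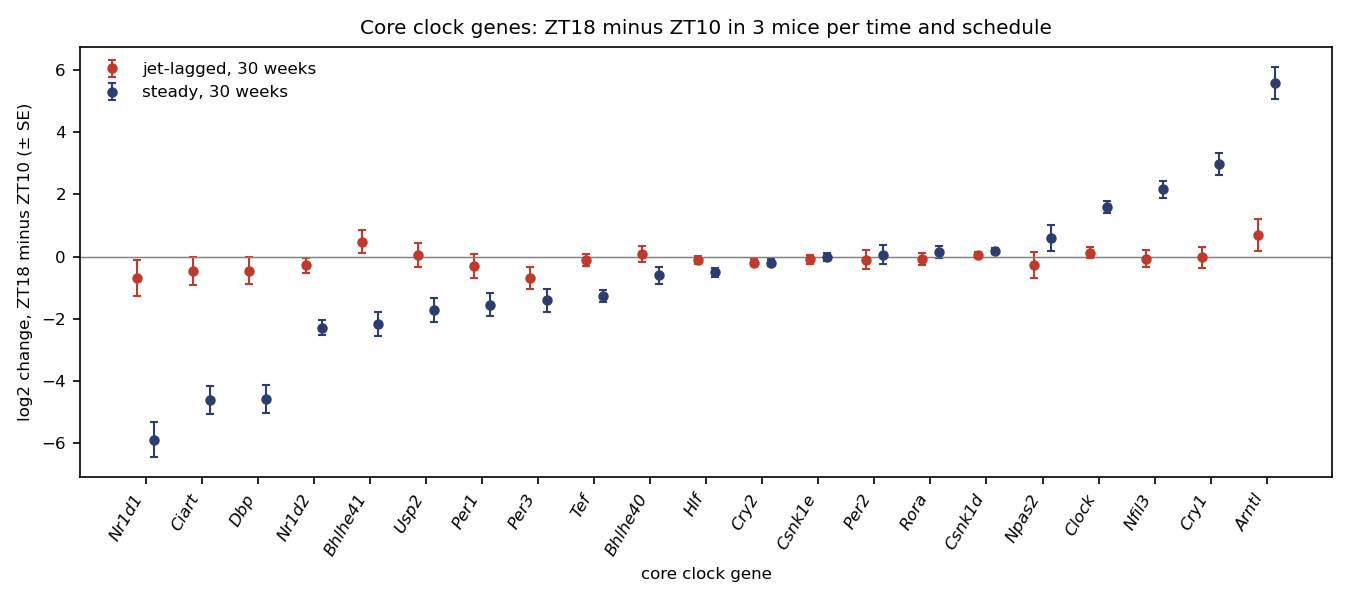
ZT18 minus ZT10 difference in level (log2) with its limma standard error for 21 of the 22 core clock genes, jet-lagged and steady mice of 30 weeks. Points above 0 are higher at ZT18; of the 21, 0 passed the test under jet lag against 14 under steady light, and values of Npas2 and Bhlhe41 include groups not well above background.

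The pair of jet-lagged ZT2 mice differed from each other in the clock more than mice of the other times did. Of the 22 core clock genes, 11 differed by 1 or more between these mice, beside 863 of all genes (3.73%). Among the 3 ZT10 mice 1 of 22 did so between any pair, and among the 3 ZT18 mice 0. The median absolute difference between mice over the 22 genes was 1.04 at ZT2, 0.26 at ZT10 and 0.26 at ZT18, and over all genes 0.17, 0.23 and 0.26. In steady mice, 2, 5 and 3 core clock genes differed by 1 or more at ZT2, ZT10 and ZT18. In each of the 11 genes (Npas2, below background, among them) jet-lagged mouse 2 lay nearer than mouse 1 to the mean of the steady ZT2 mice. This held for 18 of all 22 clock genes and for 12715 of all 23109 genes. The core clock count over time was 9 without mouse 1, 1 without mouse 2 and 3 without the 3 muscle-high arrays.

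Genes known as outputs of the liver clock were called in 10 of 23 cases over time, against 20 in steady mice. The shares of all genes called were 3.62% and 11.2%. Rgs16, a regulator of G-protein signalling, stood at 2.69 and -2.76 at ZT2, 4.47, 3.59 and 4.14 at ZT10, and 4.08, 4.15 and 4.13 at ZT18. It rose by 4.27 ± 1.08 at ZT10 (adjusted p = 0.045), and in steady mice it was high only at ZT10, at 5.49, 5.17 and 4.35, against 1.68 and -0.20 at ZT2 and -1.04, -1.11 and -1.03 at ZT18. Avpr1a, the vasopressin receptor, was the one list member that fell at both later times, at 1.08 and 2.54, then 0.26, 0.37 and 0.27, then 0.38, 0.32 and -0.03. Its steady ZT18 mice, at 2.23, 1.99 and 2.16, were again high, so the ZT18 minus ZT10 change differed between schedules by -1.80 ± 0.34 (adjusted p = 0.0059). The mitotic kinase gene Wee1 rose by 1.61 ± 0.34 at ZT10 (adjusted p = 0.016), and Por, which supplies electrons to P450 enzymes, by 1.31 ± 0.24 (adjusted p = 0.0061). Without ZT2 mouse 2, 2 of the 23 were called. Without the 3 muscle-high arrays or with the slide as a fixed block 5 were called, and with the marker levels as covariates 3.

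Genes of fatty acid and triglyceride synthesis held the most calls over time among the 22 lists of pathway genes. Of 32 tested, 18 were called over time, against 10 in steady mice, beside 3.62% and 11.2% of all genes. At ZT18, 21 rose relative to ZT2 and 0 fell, beside 3.61% and 2.14%. At ZT10, 6 rose and 1 fell, beside 0.952% and 0.645%. All 3 ZT18 mice lay above all 3 ZT10 mice in 21 genes, and below in 0, beside 9.2% and 4.28%. The median change was 1.16 at ZT18 and 0.62 at ZT10, both against ZT2, and 0.63 between ZT18 and ZT10. The median range was 1.26 in jet-lagged and 0.48 in steady mice. The pattern over time differed between schedules in 11 of the 32, beside 1.97% of all genes. That count was 1 with the slide as a fixed block, 2 with the spread of the arrays compared alone and 5 without the 3 muscle-high arrays.

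Thrsp, a lipogenic nuclear protein, stood at 6.55 and 4.82 at ZT2, 8.61, 8.16 and 8.60 at ZT10, and 9.32, 9.67 and 9.15 at ZT18, 3 steps without overlap. It rose by 3.64 ± 0.35 at ZT18 against ZT2 (adjusted p = 9.5e-06). Fasn, fatty acid synthase, stood at 2.06 and 1.01, at 3.35, 3.42 and 3.93, and at 4.42, 5.24 and 4.47 under jet lag. In steady mice its times overlapped, at 3.96 and 3.20, at 3.82, 2.76 and 4.84, and at 3.63, 3.53 and 3.36 (adjusted p = 0.97). The jet-lagged ZT18 mice thus lay above those of ZT10 and ZT2; Fasn rose by 3.27 ± 0.38 at ZT18 against ZT2 (adjusted p = 3.8e-05), and the pattern differed between schedules (adjusted p = 0.0071). Elovl6, the elongase of palmitate, stood at 3.72 and 2.74, at 4.95, 5.30 and 5.59, and at 6.34, 6.95 and 6.14, and rose by 3.42 ± 0.41 (adjusted p = 3.8e-05).

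Scd1, the stearoyl-CoA desaturase, moved mostly between ZT10 and ZT18, at 6.59 and 5.44, then 6.74, 6.70 and 7.43, then 8.19, 8.45 and 8.76. Its ZT18 minus ZT10 difference was 1.43 ± 0.30 (unadjusted p = 9.2e-05, adjusted p = 0.14), and this difference exceeded that of steady mice by 1.71 ± 0.42 (adjusted p = 0.035). Steady Scd1 stood at 8.32 and 7.85, at 7.85, 7.99 and 7.90, and at 7.97, 7.26 and 7.30. The jet-lagged ZT2 mice and 2 of the ZT10 mice were therefore below all steady mice. Acly, which makes cytosolic acetyl-CoA, stood at 5.92 and 5.62, at 6.51, 6.60 and 7.02, and at 7.76, 8.52 and 7.63, and Me1, malic enzyme, at 4.62 and 4.22, at 5.03, 5.14 and 5.70, and at 6.26, 6.96 and 6.37. Both rose stepwise, by 2.14 ± 0.29 and 2.24 ± 0.29 at ZT18 against ZT2 (adjusted p = 0.00011 and 8.4e-05). Lpin1, a phosphatidate phosphatase induced by fasting and glucocorticoids, rose by 2.92 ± 0.37 (adjusted p = 7.8e-05), and its levels were 1.79 and 0.19, then 3.75, 2.92 and 2.75, then 4.36, 3.82 and 3.49. In steady mice Lpin1 was high at ZT10 alone, so the ZT18 minus ZT10 change differed by 2.68 ± 0.47 (adjusted p = 0.0039).

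Of the lipogenic regulators, Srebf1 was called, at 2.14 and 2.09, at 3.30, 3.20 and 2.82, and at 3.37, 3.93 and 3.33 (adjusted p = 0.0099). Mlxipl, which encodes ChREBP, had a range of 0.17 (adjusted p = 0.88). Pnpla5 had no ZT2 array well above background, and its ZT18 level was at least 2.52-fold higher (adjusted p = 0.0036), a lower bound taken against each array's weakest signal above background. Elovl3 was the member that fell at ZT10, by 2.29 on the log2 scale (adjusted p = 0.047), with 3.07 and 5.85 at ZT2. The 18 calls became 14 without ZT2 mouse 2, 9 without the 3 muscle-high arrays and 12 with the muscle and acinar marker levels as covariates.

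**Figure D4:**
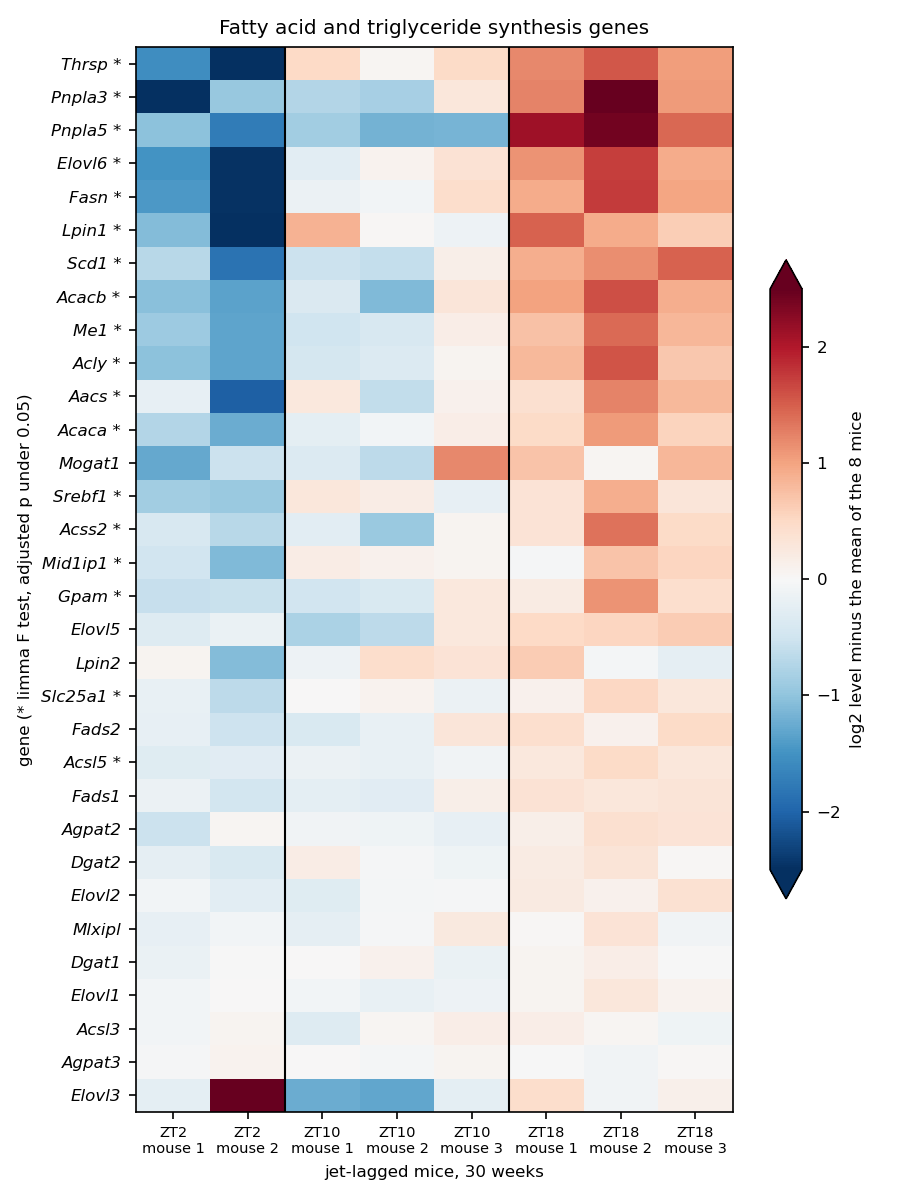
Level of 32 fatty acid and triglyceride synthesis genes (rows) in the 8 jet-lagged mice (columns, by ZT), as log2 difference from the gene's mean over these mice; an asterisk marks the 18 genes called over time. Most rows run from low at ZT2 through ZT10 to high at ZT18.

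Of 28 glucose metabolism and insulin-responsive genes 10 were called over time, against 11 in steady mice, beside 3.62% and 11.2% of all genes. Of these 28, 10 rose at ZT18 and 7 at ZT10, both against ZT2, beside 3.61% and 0.952%, and 0 fell. The median ZT18 minus ZT10 difference of the 28 was 0.14, and all ZT18 mice lay above all ZT10 mice in 10, beside 9.2%. Pklr, liver pyruvate kinase, stood at 1.21 and 0.21, at 2.14, 2.10 and 2.04, and at 2.76, 3.14 and 2.42, and rose by 2.03 ± 0.29 at ZT18 against ZT2 (adjusted p = 0.00018). Khk, fructokinase, stood at 7.87 and 7.91, at 8.65, 8.47 and 8.65, and at 9.01, 9.51 and 8.95. In both genes the 3 times formed steps without overlap. Gys2, liver glycogen synthase, rose by 1.19 ± 0.17 (adjusted p = 0.00018), and Slc37a4, the glucose-6-phosphate transporter, was also called. The gluconeogenic Pck1 (adjusted p = 0.60) and the insulin-repressed Igfbp1 (adjusted p = 0.68) were not called. Without ZT2 mouse 2 the count was 6, and without the 3 muscle-high arrays it was 7.

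Of 18 genes known to respond to glucocorticoids, 6 were called, all lowest at ZT2, against 10 in steady mice. Among all genes the shares called were 3.62% and 11.2%. Dusp1, a MAP kinase phosphatase, stood at 0.33 and 1.19, at 2.34, 2.80 and 2.02, and at 2.24, 2.50 and 2.05 (adjusted p = 0.029). Tsc22d3, which encodes GILZ, stood at 4.10 and 4.27, at 4.86, 4.95 and 5.07, and at 5.50, 5.20 and 5.01 (adjusted p = 0.032). Both ZT2 mice were below all others in each gene, and Per1 and Lpin1, described above, belong to this list too. Without ZT2 mouse 2, 3 were called, and without the 3 muscle-high arrays, with the marker covariates or with the slide fixed 2.

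Some detoxification genes were called as well. Of 31 glutathione and NRF2 genes 9 were called, against 3 in steady mice, beside 3.62% and 11.2% of all genes. Under jet lag 11 rose and 1 fell at ZT18 relative to ZT2, beside 3.61% and 2.14%. Gsta2, a glutathione transferase, stood at 2.54 and 3.80, at 4.30, 4.32 and 4.11, and at 4.62, 5.06 and 5.19, and rose by 1.79 ± 0.29 (adjusted p = 0.0007). Glutathione transferase genes include close copies, so their probes may share signal. Without ZT2 mouse 1 the count was 1, without the 3 muscle-high arrays 4, and without ZT2 mouse 2, with the marker covariates or with the slide fixed 5. Of 22 P450 and CAR or PXR targets 5 were called, against 9 in steady mice, beside 3.62% and 11.2% of all genes. Among the 5 was Cyp2a4, at 7.06 and 6.97, at 8.66, 8.14 and 8.01, and at 8.49, 8.57 and 8.53. Another was the efflux pump gene Abcb1a, at -1.91 and -1.97, at -0.53, -0.71 and -0.50, and at -0.63, -0.27 and -0.43. Both were low at ZT2 and level afterwards, with a rise of 1.52 ± 0.20 and 1.47 ± 0.23 at ZT18 (adjusted p = 9.9e-05 and 0.0005). Cyp2a4 has a near-identical copy, Cyp2a5. The 5 calls became 3 without ZT2 mouse 2, without the 3 muscle-high arrays or with the slide fixed, and 2 with the marker covariates.

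Among 26 urea cycle and amino acid enzymes 6 were called, against 12 in steady mice, beside 3.62% and 11.2% of all genes. Asl, argininosuccinate lyase, stood at 5.91 and 5.78, at 6.58, 6.49 and 6.43, and at 6.82, 6.84 and 6.87, and in steady mice at 5.93 and 5.71, at 6.29, 6.21 and 6.40, and at 7.13, 7.16 and 7.11. It thus kept the same stepwise order in both schedules, and rose by 0.95 ± 0.10 at ZT18 against ZT2 under jet lag (adjusted p = 2.2e-05). Ass1, the enzyme before it in the urea cycle, rose by 0.91 ± 0.18 (adjusted p = 0.0025). Gldc, of glycine cleavage, fell by 0.89 at ZT10 (adjusted p = 0.037). Without the 3 muscle-high arrays or with the marker covariates 1 was called, with the slide fixed 2 and without ZT2 mouse 1 4.

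Of 30 acute phase genes, 11 were called over time, against 6 in steady mice, beside 3.62% and 11.2% of all genes. Both ZT2 mice lay above all others in 17 of the 30 and below them in 2, beside 8.43% and 13.6%. Relative to ZT2, 10 fell at ZT10 and 12 at ZT18, beside 0.645% and 2.14%, and 0 rose. The median change was -0.48 at ZT10 and -0.68 at ZT18. Saa1, serum amyloid A, stood at 10.26 and 9.46 at ZT2, 4.98, 5.53 and 7.60 at ZT10, and 5.13, 5.72 and 4.52 at ZT18. In steady mice it stood between 4.46 and 6.08 throughout, so the jet-lagged ZT2 mice and ZT10 mouse 3 exceeded every steady mouse. Saa1 fell by 4.88 at ZT18 against ZT2 (SE 0.79, adjusted p = 0.0006), and the pattern differed between schedules (adjusted p = 0.011). Its close copy Saa2, which probes may not separate from it, stood at 9.97 and 9.37, at 5.06, 5.60 and 7.70, and at 5.34, 5.70 and 4.28.

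Orm3, an orosomucoid gene, stood at 2.86 and 3.63, at 0.54, 0.64 and 1.15, and at 0.34, 0.70 and -0.08, and fell by 2.98 at ZT18 against ZT2 (SE 0.44, adjusted p = 0.00023). Lcn2, the siderophore-binding lipocalin, stood at 4.27 and 2.58, at 0.56, 0.65 and 1.98, and at 0.74, 1.32 and 0.13. As with Saa1, its ZT10 mouse 3 lay above the other later mice and below both ZT2 mice. Mt1, a metallothionein, stood at 6.30 and 6.52, at 4.74, 4.89 and 5.26, and at 5.14, 4.80 and 4.50, while Crp (adjusted p = 0.77) and Mt2 (adjusted p = 0.22) were not called. The 11 calls became 4 without ZT2 mouse 1, 6 without ZT2 mouse 2, 5 without the 3 muscle-high arrays and 3 with the marker covariates. Of the 5 neutrophil markers, another source of Lcn2, 0 were called, with summed levels of 4.39 and 5.02 at ZT2, 3.18 to 4.15 at ZT10 and 3.07 to 3.96 at ZT18; their part in the result was not tested.

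Of 28 genes of the unfolded protein response 3 were called, against 12 in steady mice, beside 3.62% and 11.2% of all genes. Both jet-lagged ZT2 mice lay above the other 6 in 13, beside 8.43%. Sdf2l1, an endoplasmic reticulum chaperone component, stood at 2.09 and 3.06, at 1.07, -0.47 and 0.77, and at 1.20, 0.77 and 1.20, and fell by 2.37 at ZT10 (SE 0.42, adjusted p = 0.0041). The co-chaperone Dnajb11 (adjusted p = 0.015) and the ubiquitin ligase Syvn1 (adjusted p = 0.049) were the other calls, with ZT2 mouse 2 the highest in both. Without ZT2 mouse 1 there were 7 calls, without mouse 2 there were 0, and without the 3 muscle-high arrays there was 1.

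Of 20 heat shock chaperone and cold-induced genes 3 were called over time, all rising at ZT18 relative to ZT2, against 14 in steady mice. Over all genes, 3.62% and 11.2% were called. All ZT18 mice lay above all ZT10 mice in 12 of the 20, beside 9.2% of all genes. In that comparison 15 had an unadjusted p under 0.05, beside 6.99%, but 0 passed the adjusted test. The median ZT18 minus ZT10 difference was 0.43 in jet-lagged and 0.73 in steady mice. Under steady light 14 rose and 1 fell between these times, beside 3.99% and 6.19%. The difference changed between schedules in 0 of the 20 by the adjusted test. At an unadjusted p under 0.05 it changed in 7, beside 3253 of all 23109 genes. In the log2 table deposited by the authors 6 of 19 were called, 1 of them higher under jet lag, beside 1246 of 12693 genes. Hspa1a, the inducible HSP70, stood at -2.77 and -2.84, at -3.16, -2.40 and -3.05, and at -1.01, -1.29 and 0.09, with Hspa1b as a near-identical copy. The ZT18 mice stood apart from both other times, by 1.78 ± 0.49 from ZT10 (unadjusted p = 0.0014, adjusted p = 0.24). The constitutive Hspa8 stood at 8.50 and 8.62, at 8.87, 8.82 and 8.70, and at 9.06, 9.24 and 9.49 (adjusted p = 0.014 over time), and Dnajb1, its co-chaperone, at 4.24 and 3.86, at 4.09, 4.30 and 4.18, and at 4.76, 4.88 and 5.26 (adjusted p = 0.032). Cirbp, a cold-induced RNA-binding protein gene, stood lower at ZT18, at 2.55, 2.00 and 1.85, against 2.95, 2.74 and 2.54 at ZT10, without a call over time (adjusted p = 0.10). Without either ZT2 mouse, without the 3 muscle-high arrays or with the marker covariates 1 was called over time, and with the slide fixed 0.

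Of 25 cell cycle and DNA replication genes 7 were called over time, against 6 in steady mice, beside 3.62% and 11.2% of all genes. At ZT18, 9 rose relative to ZT2 while 0 fell, beside 3.61% and 2.14%. Between ZT10 and ZT18, 13 of the 25 had all ZT18 mice above all ZT10 mice, beside 9.2%, with a median difference of 0.53. In steady mice 0 rose and 4 fell in that comparison, beside 3.99% and 6.19%. The change was higher under jet lag in 5 genes by the test of the difference, beside 1.26%. Rrm2, a ribonucleotide reductase subunit, stood at 0.96 and 0.27, at 2.04, 1.87 and 2.30, and at 2.99, 3.08 and 2.51, a stepwise rise of 2.26 ± 0.30 at ZT18 against ZT2 (adjusted p = 8.7e-05). Mcm3, a subunit of the replicative helicase, stood at 0.22 and 0.18, at 0.46, 0.32 and 0.73, and at 1.54, 1.36 and 0.89 under jet lag, against 0.52 and 0.57, 1.06, 0.76 and 0.90, and 0.60, 0.48 and 0.83 in steady mice. Its jet-lagged ZT18 mice lay above both earlier times, and the ZT18 minus ZT10 change differed between schedules by 0.97 ± 0.24 (adjusted p = 0.036). Markers of mitosis were dimmer; Aurka stood at -1.92 and -2.15, at -2.14, -1.64 and -1.31, and at -0.75, -0.93 and -0.72 (adjusted p = 0.014). The 7 calls became 3 with the slide fixed, 2 without ZT2 mouse 2, and 1 without the 3 muscle-high arrays or with the marker covariates.

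**Figure D5:**
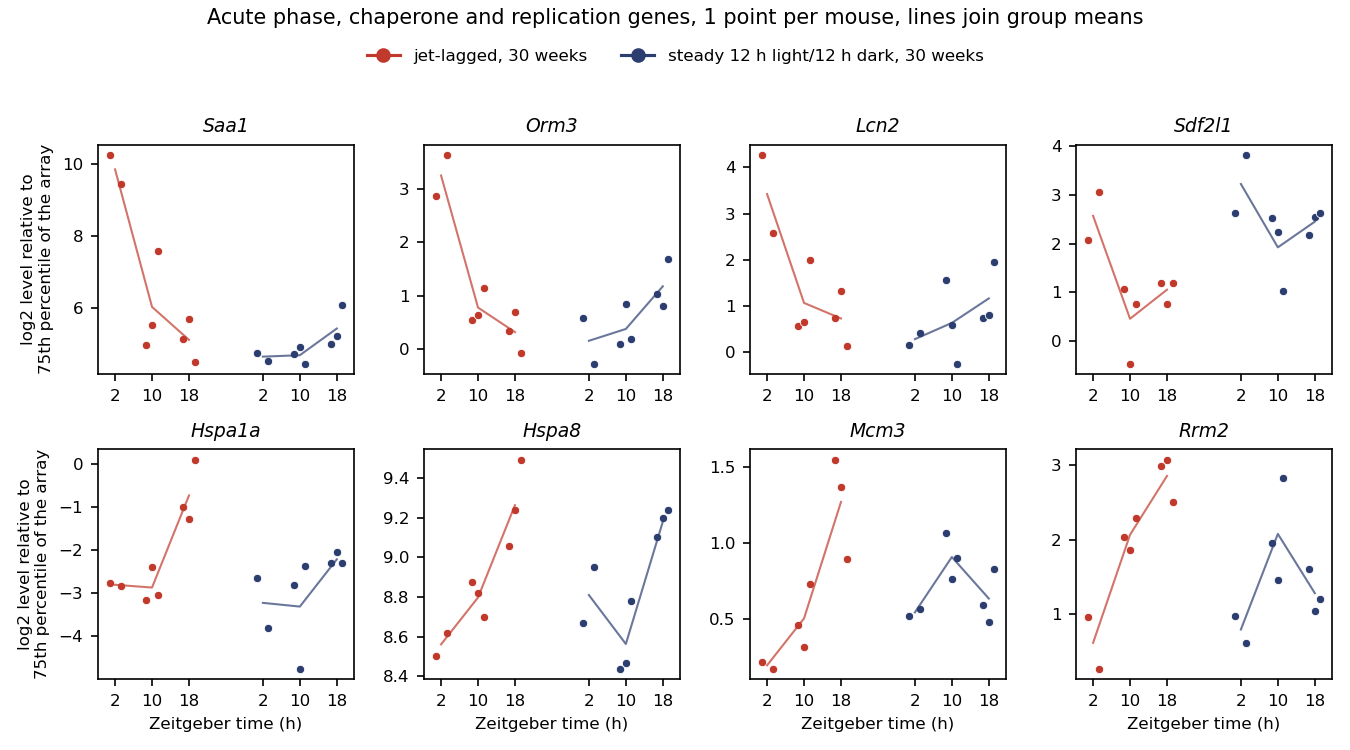
Level (log2 signal relative to the array's 75th percentile) by ZT of acute phase (Saa1, Orm3, Lcn2), unfolded protein response (Sdf2l1), heat shock (Hspa1a, Hspa8) and DNA replication (Mcm3, Rrm2) genes, 1 point per mouse, jet-lagged mice left of steady mice, lines through group means. The acute phase genes peak in both jet-lagged ZT2 mice, whereas among jet-lagged mice Hspa1a, Hspa8, Mcm3 and Rrm2 are highest at ZT18.

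The remaining groups held 0 to 2 calls each over time, beside 3.62% of all genes (11.2% in steady mice). Every group with 2 calls, and growth hormone with 1 of 17, held a larger share than the array. Ribosome biogenesis, with 1 of 31, and interferon, with 0 of 29, held a smaller share. Calls were 2 of 26 cholesterol genes (4 in steady mice), 2 of 30 fatty acid oxidation genes (7), 2 of 26 bile acid genes (9), 2 of 17 iron genes (3) and 2 of 18 lipid droplet genes (4). They were 2 of 16 pericentral genes (3 in steady mice), 1 of 17 growth hormone genes (2), 2 of 25 immediate early genes (9), 1 of 31 ribosome biogenesis genes (4) and 0 of 29 interferon genes (4). Without the 3 muscle-high arrays the bile acid and lipid droplet genes held 2 calls each and the others 0 or 1. Single members moved strongly. Crot, peroxisomal carnitine octanoyltransferase, stood at 5.98 and 6.47, at 4.99, 5.01 and 4.94, and at 4.66, 4.49 and 4.78, and fell by 1.62 at ZT18 against ZT2 (SE 0.20, adjusted p = 6.2e-05). Abcb11, the bile salt export pump, fell by 0.68 at ZT10 (SE 0.11, adjusted p = 0.0021), and Hsd3b7, of bile acid synthesis, by 1.06 at ZT18 (SE 0.18, adjusted p = 0.0011). Hamp2 stood at -0.54 and 0.04, at 1.37, 0.80 and 0.90, and at 2.63, 3.21 and 2.42, while Hamp, which encodes the iron hormone hepcidin, was not called (adjusted p = 0.77). G0s2, an inhibitor of the triglyceride lipase ATGL, stood at 3.16 and 2.83, at 4.52, 5.53 and 5.06, and at 5.27, 4.58 and 5.63, so that it was low in both ZT2 mice and overlapped at the later times. Cidec, a lipid droplet gene of adipocytes and fatty liver, stood at -1.25 and -1.39, at 0.57, 0.30 and 2.96, and at 1.28, 1.01 and 2.46. The 5 adipocyte markers were split. Both ZT2 mice lay below the other 6 in 2 of them and above in 2, beside 13.6% and 8.43% of all genes. Adipoq was lowest at ZT2, at -4.46 and -3.32, and reached 0.47 in ZT10 mouse 3. The part of adipocytes in the Cidec values was not tested. Lgr5, a WNT target of pericentral hepatocytes, stood at 0.08 and 1.47, at -0.80, -0.52 and -0.55, and at -0.74, -0.84 and -1.14.

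By the size of the range, the leading called genes were Moxd1, Myh8, Rgs16, Saa1, Saa2 and Slc2a4. Moxd1, a monooxygenase-like gene, stood at 2.94 and 3.71 at ZT2, -0.91, -3.66 and -3.96 at ZT10, and -2.16, -3.85 and -5.03 at ZT18, well above background in both ZT2, 2 ZT10 and 1 ZT18 mouse. Its ZT18 against ZT2 call (adjusted p = 0.015) and its place among the largest ranges thus rest in part on values below background, and no fold is given. The mean level of the muscle myosin Myh8 was at least 300.0-fold higher at ZT18 than at ZT2 (adjusted p = 0.0098). This bound is for the mean of the ZT18 mice, whose muscle marker levels were uneven, at 2.89, 2.64 and -0.90. Slc2a4, the insulin-responsive transporter GLUT4 of muscle and fat, stood at -2.18 and -2.82, at 2.02, 0.39 and 1.43, and at 2.75, 3.37 and 1.86, with both ZT2 mice lowest, as for the muscle markers, whose part in this was not tested. Angptl8, an insulin-responsive inhibitor of lipoprotein lipase, rose by 2.80 ± 0.70 at ZT10 (adjusted p = 0.044), at 5.40 and 5.09 at ZT2 and 7.57, 8.29 and 7.24 at ZT10.

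Between ZT10 and ZT18, where no gene passed the adjusted test, some genes of the smallest p-values are given as values, chosen after these were seen. P4ha1, a collagen prolyl hydroxylase, stood at -0.78, -0.61 and -0.08 at ZT18, against -1.61, -2.17 and -1.56 at ZT10, without overlap. Its difference was 1.25 ± 0.21 (unadjusted p = 5.6e-06, adjusted p = 0.052), and in steady mice it rose by 1.06 (adjusted p = 0.0017). Pgd and Tkt, enzymes of the pentose phosphate pathway, which supplies NADPH for lipid synthesis, were also among the genes of small p. Pgd stood at 3.67, 4.08 and 3.61 at ZT18, against 3.09, 2.90 and 3.31 at ZT10, a difference of 0.68 ± 0.13 (adjusted p = 0.093), and Tkt at 6.20, 6.57 and 6.40, against 5.82, 5.89 and 5.89.

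Genes called over time under jet lag were in part those called under steady light. The lists shared 300 genes. These were 35.9% of the jet-lagged list, beside 11.2% of all genes called under steady light. They were 11.6% of the steady list, beside 3.62% of all genes called under jet lag. Of the 300, 179 had their highest mean at the same time in both schedules. No share over all genes was taken for that count. For the 836 genes called under jet lag, the range of the jet-lagged group means was 0.80 at the median. Under steady light the same genes ranged over 0.46. Their choice by the jet-lagged test favours a larger range under jet lag. Over all genes tested, the medians were 0.27 under jet lag and 0.31 under steady light. In jet-lagged mice of 12 weeks, 1318 genes (5.7%) were called over time and 6 (0.026%) between ZT18 and ZT10; core clock calls over time were 5 of 22 at 30 weeks and 9 of 22 at 12 weeks. The ZT18 minus ZT10 difference itself differed between 30 and 12 weeks in 0 genes by limma's adjusted p (smallest 0.54), and in 959 (4.15%) at an unadjusted p under 0.05.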

How the data were processed

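Liver RNA was measured on 1-colour (Cy3) Agilent arrays of design 028005. Each array's deposited file holds a processed signal, an intensity from which the software had subtracted background, from Feature Extraction 11.0.1.1 per the file headers (9.1 per the submitters' processing notes). A second deposited file holds the authors' log2 values, normalized and with a batch effect removed per the submitters' processing notes by methods not given in the sources used here; it served as an alternative. Against the log2 scanner values, with genes centred on their means, all 32 columns of that table matched their own array best (smallest r 0.810, median slope 0.811), so its direction is that of the signal. Its column medians were 9.83 to 9.90 and its gene means 1.85 to 18.8, so genes were not centred; how arrays were scaled stays unknown.

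Of 62976 spots per array, 3671 control spots and outlier spots were left out, spots of a probe were averaged, and log2 signal minus the array's 75th percentile was used. Of 55681 probes, 26582 got a symbol from RefSeq (GRCm38.p6) and 29099 none. Probes well above background on all arrays of a group were kept (30487), and the brightest stood for a gene (23109 genes, 14082 with a symbol, 120 with a missing value). Over the 32 arrays 43.4% to 58.1% of probes were well above background; the number of arrays limits the precision.

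With limma 3.58.1 (R 4.3.3; tables with Python 3.11.15, pandas 2.3.3, numpy 2.4.6, figures with matplotlib 3.10.9) all 12 groups were fitted together, slide (8 in all) entering as a random effect of correlation 0.254 and 2.29 prior degrees of freedom. Adjusted p-values are Benjamini-Hochberg over all genes, with calls under 0.05, and errors are standard errors. Comparisons that share mice are not independent. In data simulated for ZT18 against ZT10 over 22989 genes, 30% of the 1.5-fold and 58% of the 2-fold changes were called. Of 96 calls, 8 were false. The simulated noise was normal, independent between genes and of the same spread in all groups, with 100 genes changed at each fold. Real groups differed in spread and some arrays had raised muscle or acinar markers, so these rates need not hold for the data.

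The members, gene lists, tests and alternatives were chosen with earlier results of these data known. Named genes were the core clock list, the called genes of largest range or change among those with a plain symbol, and up to 5 members of each other list, called ones first. A few more list members are given by value. Alternatives covered scaling, background correction, filters, probe choice, error model, marker covariates and leaving out mice. Normexp (offset 50) used the median signal, since the mean signal was not used here. Some genes of the lists, included in the counts, are not reported here by name.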

Additional observations from a re-analysis of the deposited data

Results flagged for a closer look

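The results below are here because the test of the difference between jet-lagged and steady mice of 30 weeks passed limma's adjusted p under 0.05. Values are log2, given as jet-lagged minus steady. The groups hold 2 or 3 mice, too few to look for single samples far from the others.

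The ZT18 minus ZT10 change differed between schedules in 449 genes. Among the clock genes that are high in steady mice at ZT18, the difference was -4.90 for Arntl, -1.46 for Clock, -3.00 for Cry1 and -2.24 for Nfil3. Among those high in steady mice at ZT10, it was 5.19 for Nr1d1, 2.00 for Nr1d2, 4.12 for Dbp, 1.16 for Tef, 4.15 for Ciart and 2.65 for Bhlhe41. Bhlhe41 was not well above background on any steady ZT18 array, so its value is no measured fold. The steady ZT10 group of Arntl and of Cry1 and the steady ZT18 group of Nr1d1 were well above background on 1 of 3 arrays each, and the steady ZT18 group of Ciart on 2 of 3, so these values rest in part on signals below background. Outside the clock list, among genes with a plain symbol, the largest differences of either sign were 5.42 for Rgs16 and -3.19 for the histone gene H3c15. H3c15 stood at -0.40 and 0.58 at ZT2, -0.29, -0.10 and -0.21 at ZT10 and 0.18, -0.51 and 0.80 at ZT18 in jet-lagged mice. In steady mice it stood at 0.46 and 1.36, at -1.73, -1.84 and -0.62, and at 2.07, 2.54 and 2.21. Histone genes have many close copies, so this probe may share signal.

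The pattern over all 3 times differed between schedules in 455 genes. The range of the difference between schedules over the 3 times was 5.23 for Arntl, 1.46 for Clock, 2.997 for Cry1, 5.19 for Nr1d1, 2.00 for Nr1d2 and 3.43 for Per3. Among outputs and modulators it was 5.52 for Dbp, 2.21 for Tef, 3.03 for Nfil3, 5.45 for Ciart, 3.20 for Bhlhe41, 3.91 for Usp2 and 6.18 for Rgs16. Per3 and Ciart at steady ZT2, and Bhlhe41 at steady ZT2 and ZT18, were not well above background. The acute phase genes Saa1 and Saa2, close copies, had ranges of 6.35 and 6.19.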

How the results depend on the processing

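The number of genes called over time under jet lag (836) was 483 with the slide as a fixed block, 2 with the spread of the arrays compared alone, 1649 in the authors' deposited table, 235 with muscle and acinar marker levels as covariates, and 440 without the 3 muscle-high arrays, an alternative chosen after seeing the data. In the same order, ZT10 against ZT2 (369) gave 177, 2, 929, 161 and 163, and also 240 with no slide term and 207 with no filter on dim probes. ZT18 against ZT2 (1329) gave 851, 76, 2280, 383 and 500. The schedule difference in the ZT18 minus ZT10 change (449) gave 64 with the slide fixed, 244 with the arrays compared alone, 1246 in the authors' table, 231 with no filter and 157 without the 3 arrays. The schedule difference over the 3 times (455) gave 56, 152, 1110, 221 and 191, and 270 with the covariates.
ZT18 against ZT10 (0) gave 4 with no slide term, 2 after quantile normalization, 4 after scaling to the median, 3 after normexp (chosen after seeing the data), 1 in the authors' table, 5 with the strict filter, 6 with limma-trend, 1 without all ZT2 arrays and 57 without the 3 arrays. The age difference (0) gave 27 without the 3 arrays and 0 otherwise, apart from 1 without ZT10 mouse 3.
Leaving out 1 mouse gave 352 to 916 over time (352 without ZT2 mouse 2), and 0 to 11 for ZT18 against ZT10 (1 without ZT10 mouse 1, 11 without ZT10 mouse 3, 9 without ZT18 mouse 1). It gave 150 to 339 for ZT10 against ZT2 (150 without ZT2 mouse 2; 199, 206 and 245 without ZT10 mouse 1, 2 and 3). It gave 475 to 1407 for ZT18 against ZT2 (819 and 475 without ZT2 mouse 1 and 2, 784 without ZT18 mouse 2). For the schedule difference in the ZT18 minus ZT10 change it gave 227 to 551 (288 without steady ZT10 mouse 2, 227 without steady ZT18 mouse 2). For that over the 3 times it gave 241 to 599 (294, 274 and 241 without mouse 2 of steady ZT2, ZT10 and ZT18, 302 without jet-lagged ZT18 mouse 2). For the age difference it gave 0 to 1.
With the replicate block (mouse number), calls were 586 over time, 2 for ZT18 against ZT10, 146 for ZT10 against ZT2 and 1010 for ZT18 against ZT2. The labels do not say that a number marks a shared source, and the correlation of deviations between same-numbered mice of ZT10 and ZT18 was 0.113, -0.092 and -0.105.
For single named genes, 4827 recomputed values kept direction and call and 1246 kept direction only. With the marker covariates 2 reversed at ZT18 against ZT2, Cox6a2 (-0.38) and the muscle gene Myl1 (-0.18). The causes were not tested. Genes near background are limited by signal.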
